A study of Mus musculus with 6 samples.

Results

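The 10 genes described here are members of the BCL2 family, which sets the threshold at which a cell enters apoptosis. They were chosen by name and make up 10 of the 23358 gene entries in the count table. Bcl2, Bcl2l1, Bcl2l2 and Mcl1 encode anti-apoptotic proteins, Bak1 encodes a pore-forming effector, and Bcl2l11, Bid, Bik, Bmf and Bad encode BH3-only proteins. RNA was sequenced from 6 whole tumors of female NT3 mice, and each tumor carries the number of the mouse it came from. Osx-Cre;NT3 mice gave tumors 13, 18 and 25, all on the trunk, with latencies of 150, 168 and 115 days. The FSP1-Cre;NT3 tumors were numbers 27 and 36 from the perineal region and number 29 from the trunk, and their latencies were 101, 52 and 72 days.

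In both lines the NT3 transgene was switched on by Cre. It encodes a form of NF-κB inducing kinase (NIK) that lacks its TRAF3-binding domain, and it also expresses GFP. The transgene sits at the ROSA26 locus behind a stop cassette flanked by loxP sites. Osx-Cre (Osterix) drives recombination in the osteoblast lineage and was held off with doxycycline chow until weaning. The Osx-Cre parent line was of mixed C57Bl/6J and CD1 strains. FSP1-Cre (S100a4) drives recombination mainly in fibroblasts and has also been reported in myeloid cells. The FSP1-Cre parent line was on an FVB/n background. The NT3 allele came from homozygous mothers on C57Bl/6J and each Cre allele from heterozygous fathers, so both lines share part of their background. Line therefore cannot be told apart from strain background or, since the latencies do not overlap, from latency, and only in part from site. Benign tissues were not analysed here, so every comparison is between tumors.

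In healthy cells the anti-apoptotic proteins bind the effectors BAX and BAK and keep them from permeabilizing the mitochondrial outer membrane. BH3-only proteins are induced or modified under stress, occupy the groove of the anti-apoptotic proteins and so release the effectors. NIK activates the alternative NF-κB pathway, and NF-κB is known for inducing survival genes, Bcl2l1 and Bcl2a1 among them. These proteins are regulated strongly after transcription, and RNA levels do not measure their activity.

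All 10 members were detected in every tumor and all passed the filter on low counts. Total counts on genes ranged from 51824408 to 163297772 (tumor 18), and 3 counts correspond to between 0.0184 and 0.0579 CPM (counts scaled to library size) by total counts, far below the lowest value of any member, 2.68 CPM for Bik in tumor 36. Depth therefore added little error and the number of tumors set the precision. Basal keratinocyte markers (Krt5 and 5 others) and fibroblast markers (Col1a1 and 5 others) were found at high levels in all 6 tumors, with summed levels of 5724 to 14650 CPM and 5194 to 15000 CPM. Map3k14, the gene for NIK, was at 38.7 to 118.5 CPM, and transgene and endogenous reads cannot be told apart in these counts. Tumor 36 stood apart, with the highest smooth muscle (2658 CPM) and simple epithelium (4954 CPM) marker sums and the lowest basal keratinocyte sum. In bulk tissue, fewer cells of a type and less RNA per cell cannot be told apart.

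Mcl1, which encodes a short-lived protein that restrains BAK, had the highest level of the 10 members. Levels of different genes were compared as RPKM, in which reads are divided by library size and by the length of the gene, as the authors deposited them. Mcl1 (chr3:95658721-95663178, mm10) was at 66.3, 59.7 and 81.9 RPKM in tumors 13, 18 and 25, against 77.0, 65.4 and 93.3 RPKM in tumors 27, 29 and 36, with a mean of 73.9 ± 12.5 (SD, n = 6). In each tumor this was 1.87 to 2.27 times the RPKM of Bak1, the second in order, and the ranges of both genes did not overlap. Mcl1 ranked 763 of all 23358 entries by mean RPKM.

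Bak1 (chr17:27019812-27028626), the effector of the set, followed with 35.1 ± 3.85 RPKM. Bad (chr19:6941855-6951893), a BH3-only gene whose protein is held inactive by survival-factor phosphorylation, came next with 24.4 ± 6.59 RPKM. Bak1 exceeded Bad in 6 of 6 tumors, but in tumor 18 by a ratio of 1.003 only, and their ranges overlapped. Bad exceeded Bcl2l1, the gene for BCL-XL, 1.2 to 2.38 times in 6 of 6 tumors without overlap.

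The middle of the order was closely spaced. Mean levels were 15.3 ± 0.984 RPKM for Bcl2l1, 13.5 ± 2.60 for Bid, whose protein links death receptors to the mitochondrion once cleaved by caspase-8, and 11.7 ± 2.92 for Bcl2l2, the gene for BCL-W. Bcl2l1 was above Bid in 5 of 6 tumors and Bid above Bcl2l2 in 4 of 6, so neighbours in this stretch did not differ beyond their spread. Bmf, Bik and Bcl2l11 (the gene for BIM) lay lower, with 6.46 ± 2.16, 4.90 ± 3.30 and 4.23 ± 1.66 RPKM. The place of Bik above Bcl2l11 rested on tumor 18, because Bik was the higher of the pair in only 2 of 6 tumors and the order of the pair turned when tumor 18 was left out. Bcl2, the founding member of the family, was the lowest of the 10 in the mean, with 2.08 ± 0.615 RPKM. It lay below Bcl2l11 in 6 of 6 tumors, by 1.54 to 2.74 times.

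**Figure D1:**
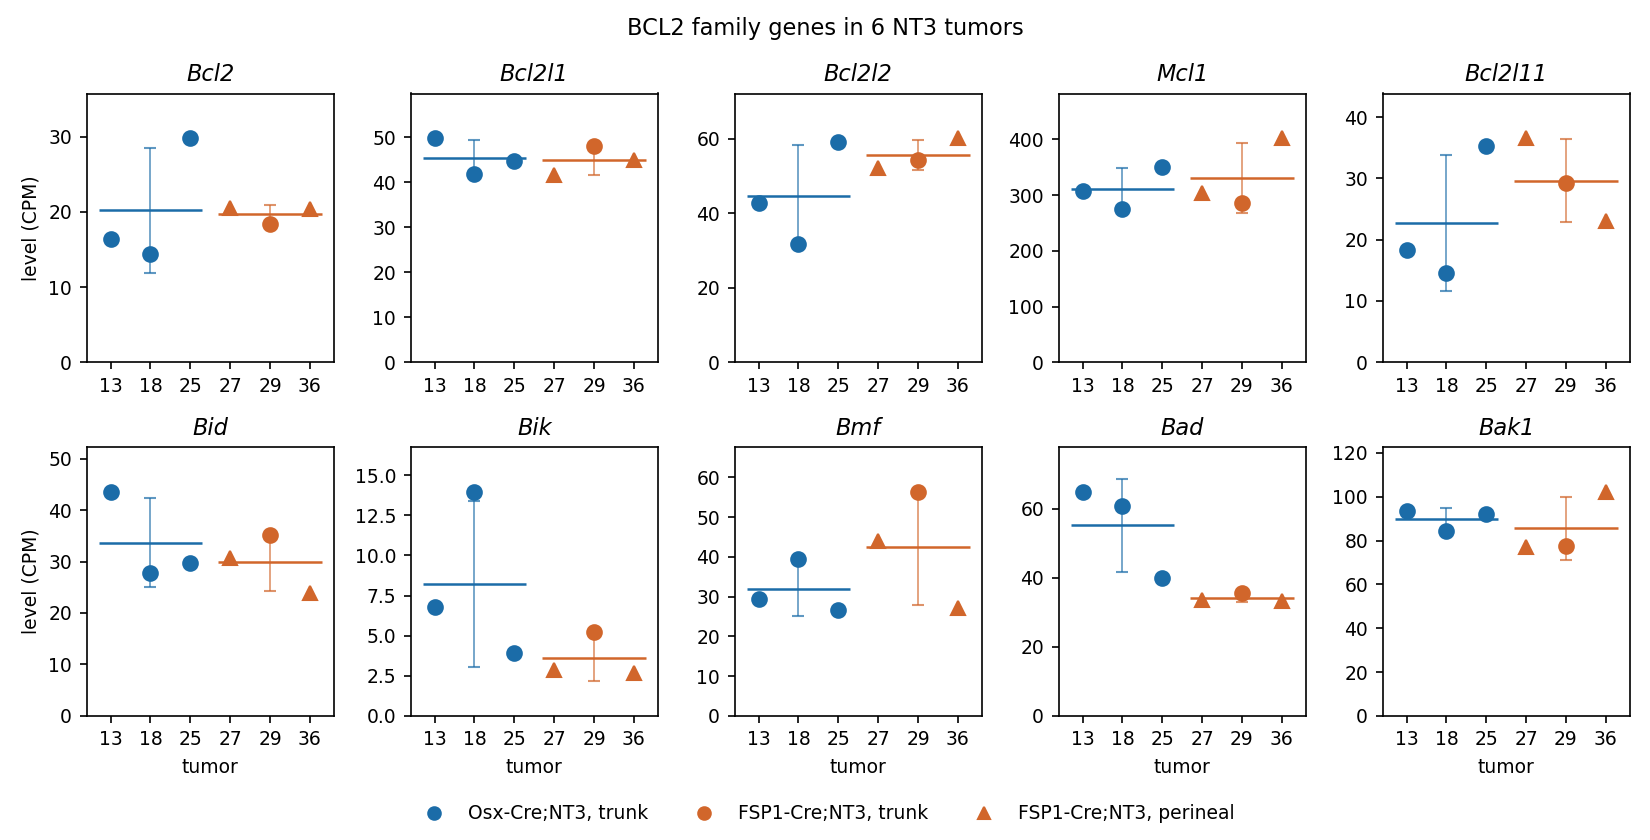
Level of each member in each tumor in CPM after TMM scaling (y axes start at 0 and differ between panels), with the mean as a line and the SD as a bar for the 3 tumors of each line; circles are trunk and triangles perineal tumors. Bcl2l1 stayed between 41.6 and 49.8 CPM, Bad was lower in all 3 FSP1-Cre;NT3 tumors than in any Osx-Cre;NT3 tumor, and Bik was highest in tumor 18 with 14.0 CPM.

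Among the 4 anti-apoptotic members, Mcl1 accounted for most of the summed RPKM in every tumor. Its share was 71.3%, 73.3% and 71.6% in tumors 13, 18 and 25, against 71.2%, 68.1% and 74.7% in tumors 27, 29 and 36. The share thus varied by 2.23 percentage points (SD, n = 6) around a mean of 71.7%, and the lines overlapped. Bcl2l1 held 15.1% ± 1.96, Bcl2l2 11.2% ± 1.69 and Bcl2 2.01% ± 0.404. The ratio of Mcl1 to Bcl2l1 ran from 4.04 in tumor 29 to 6.06 in tumor 36.

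The 6 pro-apoptotic members were less even. Bak1 held 40.0% ± 6.42 of their summed RPKM, Bad 27.2% ± 5.18, Bid 15.2% ± 2.54 and Bmf 7.37% ± 2.68. Bik, an endoplasmic reticulum-resident BH3-only protein, held 11.9% in tumor 18 and 2.85% to 5.47% in the other 5. Bcl2l11 held 2.77% and 2.31% in tumors 13 and 18 against 4.58% to 7.43% in the other 4.

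**Figure D2:**
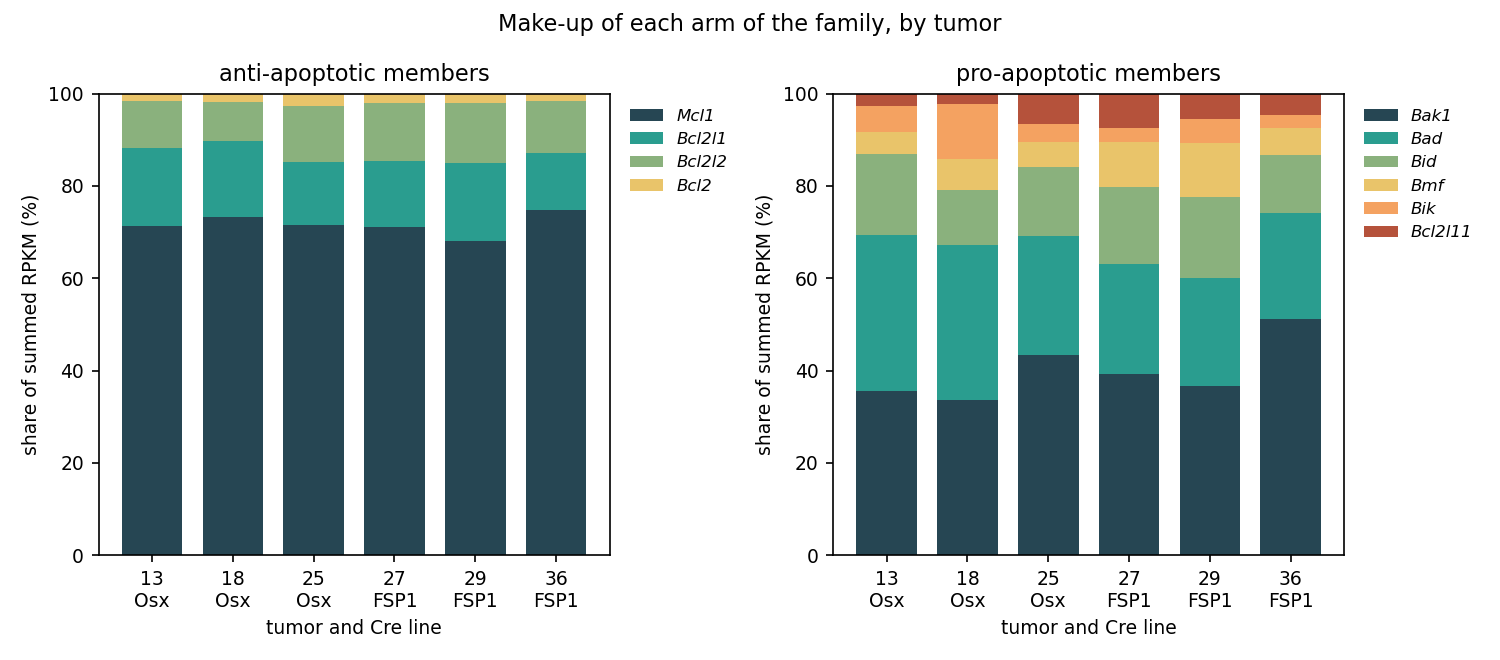
Share of each gene in the summed RPKM of the 4 anti-apoptotic (left) and 6 pro-apoptotic members (right), in percent, 1 stacked bar per tumor with its Cre line below. Mcl1 fills 68.1% to 74.7% of the left bars, while on the right the share of Bad falls between 22.9% and 34.0% and that of Bik reaches 11.9% in tumor 18.

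The summed RPKM of the anti-apoptotic members was 92.9, 81.4 and 114 in tumors 13, 18 and 25, against 108, 96.0 and 125 in tumors 27, 29 and 36. For the pro-apoptotic members it was 98.9, 94.6 and 86.4 against 86.3, 84.0 and 80.8. The ratio of the first sum to the second was 0.939 and 0.860 in tumors 13 and 18 and 1.14 to 1.55 in the other 4. Tumors 13 and 18, in which long genes were also low, were the only ones in which the pro-apoptotic sum of these members was the larger. This depended on the genes counted: with Bax, which is not among the 10, added to the pro-apoptotic sum, the ratio was 0.323 to 0.805 and below 1 in all 6 tumors. The BH3-only sum relative to the anti-apoptotic sum was likewise highest in these tumors, at 0.687 and 0.771, and lowest in tumor 36, at 0.316. Tumor 25, of the same line and site as tumors 13 and 18, was at 0.428, within the range of the FSP1-Cre;NT3 tumors.

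These sums leave out the Bcl2a1 paralogs, which encode the anti-apoptotic protein A1. They were added after their levels had been seen. Bcl2a1a, Bcl2a1b, Bcl2a1c and Bcl2a1d are nearly identical in sequence, so reads may have been split or misassigned among them, and their levels are given as a sum. The sum was 365, 609 and 139 RPKM in tumors 13, 18 and 25, against 214, 258 and 113 RPKM in tumors 27, 29 and 36, more than Mcl1 in every tumor. With them included, A1 made up 47.5% (tumor 36) to 88.2% (tumor 18) of the anti-apoptotic RPKM and Mcl1 39.3% to 8.65%. With A1 and Bax both added to the sums, the ratio of anti-apoptotic to pro-apoptotic RPKM was 1.35 to 2.92, above 1 in all 6 tumors, and highest in tumor 18. The share of Mcl1 among the named 4 was thus even across tumors, whereas the share that included A1 was not. The A1 sum was highest in tumors 18 and 13, in which long genes were low. Between the lines, the log2 fold change of Bcl2a1b was -1.05, and -0.46 with a gene length trend removed as described below. The part of gene length in the spread of A1 was not tested.

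Before removal of the gene length trend described below, Bcl2l1 was one of the least variable genes in these tumors. Its level was 49.8, 41.8 and 44.9 CPM in tumors 13, 18 and 25, against 41.6, 48.1 and 45.1 CPM in tumors 27, 29 and 36. The highest tumor was 1.2 times the lowest, and the SD of log2 CPM, 0.10, lay at percentile 1.12 of the 16415 genes tested. The median SD was 0.47 over all genes tested and 0.37 over the 10320 of them with at least 10 CPM on average. Bak1 (SD 0.16) and Mcl1 (SD 0.21) also lay low in this distribution, at percentiles 6.16 and 11.7. Bcl2l11 (0.53) and Bik (0.89) exceeded the median of all genes tested, and Bmf and Bad (both 0.44) only that of the genes with at least 10 CPM. For Bik the highest tumor was 5.21 times the lowest, and without tumor 18 its SD was 0.56.

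The promoter windows of the members were searched for the κB consensus, the 10-base motif bound by NF-κB dimers, on both strands. RefSeq (GRCm38.p6) gave 15 windows for 9 of the 10 members, each from 250 bases before to 50 bases after an annotated start. Bik was not among them. A match was found in 2 of the 15 windows (13.3%), beside 8.46% of the 32851 windows of all genes. These belonged to 1 of 3 windows of Bcl2l1 and 1 of 3 windows of Bmf. They are shown because NIK acts through NF-κB and because both genes differed in spread, Bcl2l1 being nearly even across tumors and Bmf varying between 26.7 and 56.4 CPM. The Bcl2l1 sequence is the part of the window before the start, and for Bmf it is the 30 bases that end with the match. Both genes are on the minus strand, and capitals mark the match.
Bcl2l1 (chr2:152830718-152830967): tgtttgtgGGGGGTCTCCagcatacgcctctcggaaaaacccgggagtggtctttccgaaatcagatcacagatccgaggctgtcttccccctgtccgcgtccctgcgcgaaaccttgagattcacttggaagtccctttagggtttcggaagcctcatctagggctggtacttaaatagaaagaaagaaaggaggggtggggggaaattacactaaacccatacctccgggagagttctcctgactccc
Bmf (chr2:118544578-118544607): gactctggagattgtacctcGGAGTCTCCC
The Bcl2l1 match began 242 bases before the annotated start on the sense strand, and the Bmf match lay on the antisense strand at the start itself. A match describes letters in a window only, and binding was not measured.

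Differences between the lines were small for most members. They were tested with edgeR's quasi-likelihood test over 16415 genes. None of the 10 members passed an adjusted p of 0.05, and neither did any other gene (0% called, smallest adjusted p 0.359). At an unadjusted p under 0.05 edgeR listed 1 member, Bad, beside 10.8% of all genes tested. In FSP1-Cre;NT3 tumors 4 of the 10 members were higher and 6 lower (51.1% of all genes tested were higher), and their median log2 fold change was -0.02, beside 0.01 over all genes tested. DESeq2 called 420 genes (2.72%), of which 0 were members.

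Bad was the member with the clearest separation. Its level was 64.9, 60.9 and 39.9 CPM in tumors 13, 18 and 25, against 33.7, 35.5 and 33.2 CPM in tumors 27, 29 and 36. All FSP1-Cre;NT3 tumors lay below all Osx-Cre;NT3 tumors, as did those of 8.02% of the genes tested, but tumor 25 was nearer to the FSP1-Cre;NT3 tumors than to the others of its line. The log2 fold change was -0.69 ± 0.23 (SE, 3 against 3 tumors, 95% interval -1.24 to -0.14), with an adjusted p of 0.458 in edgeR and 0.154 in DESeq2. Without tumor 25 the edgeR adjusted p was 0.0715 at a log2 fold change of -0.93. The Osx-Cre;NT3 tumors left were then 13 and 18, in which long genes were low, so line could not be told apart from that shift. Leaving out tumor 25 also took the genes called by DESeq2 from 420 to 3650. Among trunk tumors alone, tumor 29 against the 3 Osx-Cre;NT3 tumors, the log2 fold change was -0.64 (edgeR adjusted p = 1).

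Several other values are set beside those of Bad. Bad shares 524 exon bases (20.5% of its own) with Gpr137 on the opposite strand, and whether counting used strand is not given in the sources used here. Gpr137 was at 44.1, 33.4 and 36.6 CPM in the Osx-Cre;NT3 tumors and 34.7, 45.6 and 22.3 CPM in the FSP1-Cre;NT3 tumors, so its lines overlapped. The 6 macrophage markers ran in sum from 1308 to 3034 CPM in Osx-Cre;NT3 tumors and from 1256 to 1556 CPM in those of FSP1-Cre;NT3, with 2 of 6 higher in FSP1-Cre;NT3. This sum had a Pearson r of 0.907 with Bad over the 6 tumors. Lyz2 held much of it, with 2274 CPM in tumor 13, and the markers did not move as one. Lyz2 and Cd68 were highest in tumor 13 and C1qa in tumor 18, whereas Csf1r, Adgre1 and Mrc1 were highest in tumor 36, where Bad was lowest. Fibroblast markers were higher in FSP1-Cre;NT3 tumors for 6 of 6 genes, with sums of 11540 to 15000 CPM against 5194 to 6741 CPM. No gene of the macrophage or fibroblast list was at 0 in any tumor. Mean RNA integrity, per the labels, was 7.7 for the Osx-Cre;NT3 samples and 8.5 for those of FSP1-Cre;NT3. The part of these in the difference was not tested.

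Bik (chr15:83526862-83544635) showed the largest fold change of the 10 between the lines, and also the widest interval. Its level was 6.79, 14.0 and 3.89 CPM in tumors 13, 18 and 25, against 2.89, 5.21 and 2.68 CPM in tumors 27, 29 and 36. Tumor 29 exceeded tumor 25, so the lines overlapped. The log2 fold change was -1.19 ± 0.55 (SE, 95% interval -2.50 to 0.11, edgeR adjusted p = 0.464), and without tumor 18 it was -0.57.

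The other BH3-only genes overlapped between the lines. Bmf, whose protein responds to loss of anchorage, was at 29.5, 39.4 and 26.7 CPM in tumors 13, 18 and 25, against 44.1, 56.4 and 27.1 CPM in tumors 27, 29 and 36, with a log2 fold change of 0.42 ± 0.31 (edgeR adjusted p = 0.58). Bcl2l11 was at 18.4, 14.5 and 35.3 CPM and at 36.6, 29.3 and 23.0 CPM in the same order. Tumor 25 was close to tumor 27 rather than to the other Osx-Cre;NT3 tumors, and the log2 fold change was 0.38 ± 0.38 (edgeR adjusted p = 0.675). Bid was at 43.6, 27.7 and 29.8 CPM and at 30.7, 35.3 and 23.9 CPM, with a log2 fold change of -0.17 ± 0.26. It was highest in tumor 13 and lowest in tumor 36, as was the sum of the 6 basal keratinocyte markers (14650 and 5724 CPM). Krt5, Krt14 and Krt15 followed this order, but the list did not move as one. Trp63, Col17a1 and Itgb4 were highest in tumor 25, and Col17a1 and Itgb4 were lowest in tumor 18. Bid shares 628 exon bases with Bcl2l13 on the opposite strand.

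For the anti-apoptotic genes and Bak1 the intervals bound how far the lines could differ. The 95% interval of the log2 fold change was -0.43 to 0.40 for Bcl2l1, -0.43 to 0.61 for Mcl1 and -0.51 to 0.37 for Bak1. Bcl2, at 16.4, 14.5 and 29.8 CPM in tumors 13, 18 and 25, against 20.5, 18.4 and 20.3 CPM in tumors 27, 29 and 36, had a log2 fold change of -0.03 with an interval of -0.78 to 0.72. In CPM its FSP1-Cre;NT3 tumors lay inside the range of the Osx-Cre;NT3 tumors. Bcl2l2 was at 42.9, 31.7 and 59.2 CPM and at 52.3, 54.4 and 60.2 CPM, with a log2 fold change of 0.32 ± 0.26 (edgeR adjusted p = 0.607). The direction for Bcl2, Bcl2l1, Bak1, Mcl1 and Bid turned under at least 1 alternative setting, library sizes without TMM among them for Bcl2, Bcl2l1 and Bak1, so no direction is assigned to these genes.

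**Figure D3:**
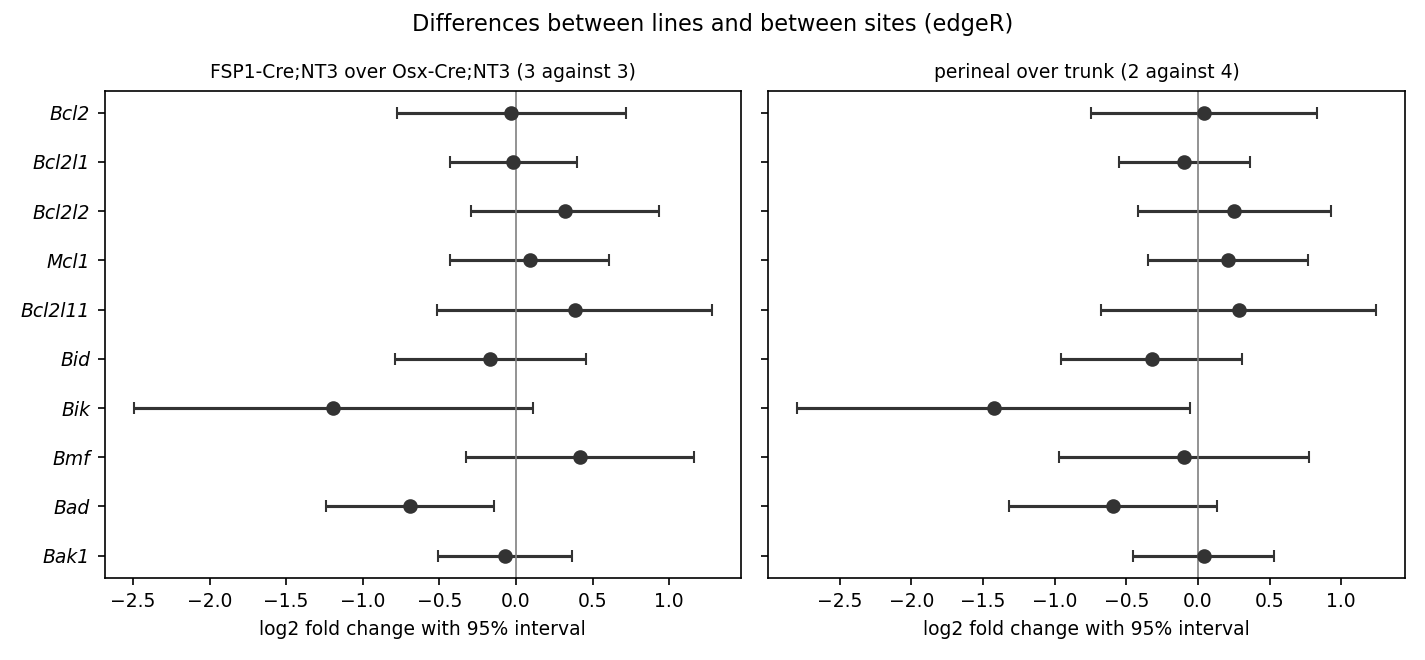
log2 fold change of each member (point) with its 95% interval (bar) from edgeR, between the lines (left, FSP1-Cre;NT3 over Osx-Cre;NT3, 3 against 3) and perineal over trunk tumors (right, 2 against 4). The intervals of Bad on the left (-1.24 to -0.14) and Bik on the right (-2.80 to -0.06) lie below 0, and neither gene passed the adjustment over all genes.

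The 2 perineal tumors were compared with the 4 trunk tumors with the same test over 16971 genes. The comparison uses the same 6 tumors as that of the lines, and both perineal tumors are FSP1-Cre;NT3. No member passed an adjusted p of 0.05 (0% of all genes called, smallest adjusted p 0.263), 1 member had an unadjusted p under 0.05 beside 10.5% of all genes, and DESeq2 called 605 genes (3.66%) with 0 members among them. In perineal tumors 5 members were higher and 5 lower (48.5% of all genes tested were higher), and the median log2 fold change was -0.03 over the members and -0.02 over all genes tested.

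Bik and Bad were the members whose perineal tumors lay below every trunk tumor, as did those of 9.44% of genes. Bik averaged 2.78 ± 0.145 CPM (SD, n = 2) in perineal and 7.46 ± 4.49 CPM (n = 4) in trunk tumors. The log2 fold change was -1.43 ± 0.58 (95% interval -2.80 to -0.06), with an adjusted p of 0.463 in edgeR and 0.168 in DESeq2. Without tumor 18, which held the highest Bik level, it was -0.93, and within FSP1-Cre;NT3, tumors 27 and 36 against tumor 29, it was -0.91. The 6 endothelial markers (Pecam1, Cdh5, Kdr and others) summed to 306 and 378 CPM in perineal and 123 to 264 CPM in trunk tumors, with 5 of 6 higher in perineal tumors and none at 0, and their sum had an r of -0.943 with Bik over the 6 tumors. The neutrophil markers (163 and 476 CPM against 21.1 to 64.2 CPM, 5 of 5 found higher) and the adipocyte markers (38.2 and 134 CPM against 2.53 to 13.4 CPM, 6 of 6 higher) also separated the sites. The adipocyte marker Retn was at 0 in tumor 13, and no neutrophil marker found was at 0 in any tumor. The part of these lists in the difference was not tested.

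Bad averaged 33.5 ± 0.313 CPM in perineal and 50.3 ± 14.8 CPM in trunk tumors, a log2 fold change of -0.59 ± 0.31 (edgeR adjusted p = 0.544). Within FSP1-Cre;NT3 the perineal tumors differed from the trunk tumor by -0.09. With line as a covariate the value was -0.10. Mcl1 was at 353 ± 69.2 CPM in perineal and 305 ± 33.6 CPM in trunk tumors, with a log2 fold change of 0.21 ± 0.24. Without tumor 36, which left tumor 27 as the only perineal tumor, the log2 fold change was -0.00487. Tumor 36, which was highest for Mcl1 (402 CPM) and Bak1 (102 CPM), was also the tumor with the highest smooth muscle and simple epithelium marker sums, whose r with Mcl1 was 0.937 and 0.80. Their part was not tested.

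Several members were high or low in the same tumors. This is described here by Pearson's r of log2 CPM over the 6 tumors, which share the scaling of each library. Bcl2, Bcl2l2 and Bcl2l11 were high together (r = 0.790 to 0.809), and Bad and Bik were high together (r = 0.844). The first group ran opposite to the second, with r from -0.589 for Bcl2 and Bad to -0.921 for Bcl2l2 and Bik. Mcl1 and Bak1 were paired (r = 0.795), and Bmf ran opposite to Bak1 (r = -0.914). Without tumor 36, which was highest for Mcl1 and Bak1, these values were 0.560 and -0.934. Bcl2l1 had no r above 0.679 with any other member, the value with Bid.

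**Figure D4:**
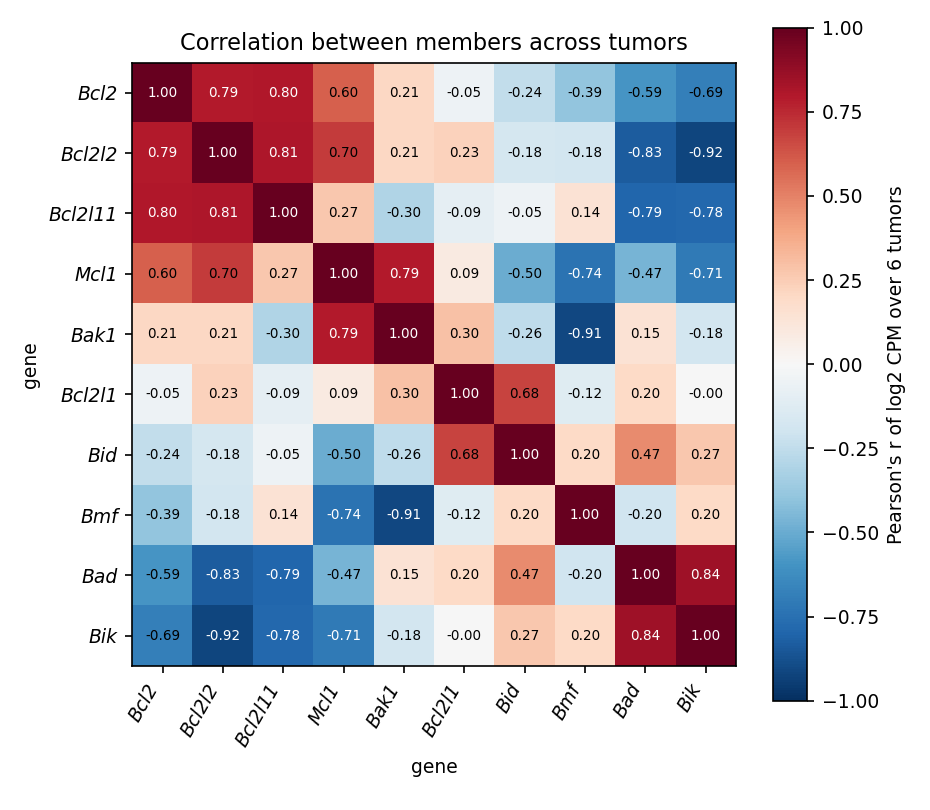
Pearson's r of log2 CPM over the 6 tumors for each pair of members, red for positive and blue for negative values. Bcl2, Bcl2l2 and Bcl2l11 form a red block (0.79 to 0.81), Bad and Bik a red pair (0.84), and the block between them is blue.

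This pattern moved with gene length, and the cause was not tested. The median deviation of long genes (at least 3590 bases) minus that of short genes (at most 2033 bases), each gene taken relative to its own mean log2 CPM, was -0.46 and -0.74 in tumors 13 and 18, but 0.53, 0.35, 0.14 and 0.21 in tumors 25, 27, 29 and 36. The r of this difference with Bcl2, of 7737 bases, was 0.889, with Bcl2l11, of 5037 bases, 0.945, and with Bcl2l2, of 3461 bases, 0.928. With Bad, of 1452 bases, it was -0.871, and with Bik, of 943 bases, -0.884. Length did not order the members fully. Bmf, of 4633 bases, had an r of -0.08 and Mcl1, of 3487 bases, one of 0.55, while Bcl2l1, Bak1 and Bid, of 1891 to 2371 bases, had values from -0.26 to -0.02. The genes most like Bcl2 among 10320 searched included Pum2 (r = 0.997) and Aff4 (0.995), and 497 genes had an r over 0.9 with it. For Mcl1 they were Ankrd13a, Gclc and Pacsin2 (0.988 to 0.989), among 200 over 0.9, and for Bcl2l1 they were 5930416I19Rik, Inpp5f and Pqlc3 (0.956 to 0.969), among only 5.

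A smooth trend of log2 CPM on gene length was therefore removed in each tumor, a step added after the data were seen. The SD of Bcl2 then was 0.18 in place of 0.36, that of Bcl2l11 0.32 in place of 0.53, and that of Bad 0.27 in place of 0.44. For Bcl2l1 it was 0.11 in place of 0.10, for Bak1 0.20 in place of 0.16, and for Mcl1 0.18 in place of 0.21. The percentiles of these SDs among all genes tested were not computed after this step. The r of Bcl2 with Bcl2l11 went from 0.804 to -0.426 and that with Bad from -0.589 to 0.818, while that of Bmf with Bak1 stayed at -0.914. Other pairs kept their sign at a smaller size, from -0.921 to -0.815 for Bcl2l2 and Bik, from -0.834 to -0.609 for Bcl2l2 and Bad, from 0.844 to 0.604 for Bad and Bik, and from 0.809 to 0.563 for Bcl2l2 and Bcl2l11. Bad kept its separation, with adjusted log2 levels of 5.80, 5.62 and 5.54 in tumors 13, 18 and 25, against 5.20, 5.20 and 5.17 in tumors 27, 29 and 36. Its log2 fold change between the lines was -0.47 ± 0.13 (edgeR adjusted p = 0.39). Bcl2, whose lines overlapped in CPM, also separated them after this step. How many of all genes tested separated the lines after this step was not counted, so neither separation has a background. Its adjusted log2 levels were 4.376, 4.434 and 4.505 in tumors 13, 18 and 25, against 4.075, 4.094 and 4.204 in tumors 27, 29 and 36. The log2 fold change of Bcl2 between the lines was then -0.31 ± 0.15 (edgeR adjusted p = 0.426). For Bik the line value was -0.73 and the perineal value -0.996 (edgeR adjusted p = 0.401).

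The other genes of the apoptosis pathway were taken from a list of 42, of which 40 passed the filter and Bcl2l10 and Hrk did not. Between the lines 0 passed an adjusted p of 0.05 in edgeR in either direction, and 4 had an unadjusted p under 0.05, all lower in FSP1-Cre;NT3 tumors (10.8% of all genes in both directions, 3.47% lower). Of the 40, 11 were higher and 29 lower, with a median log2 fold change of -0.21 beside 0.01 over all genes. In the remaining BCL2 family 12 of 14 were lower, with a median of -0.67. Bcl2a1a, Bcl2a1b, Bcl2a1c and Bcl2a1d count singly among these 14 and were all lower. Their reads may be misassigned among them, so they are not separate observations. With the gene length trend removed, 11 of the 14 were lower and the median was -0.39. The apoptosome, caspases and mitochondrial factors had a median of -0.16, the inhibitors of apoptosis with cFLIP -0.06, and the death receptors and adaptors -0.12.

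The genes below an unadjusted p of 0.05 were Bnip3 and Bnip3l, which encode mitophagy receptors induced by hypoxia, Bcl2l15, and Pmaip1, which encodes NOXA, the BH3-only antagonist of MCL1. Bnip3 was at 68.7, 76.2 and 85.5 CPM in tumors 13, 18 and 25, against 22.3, 33.3 and 33.6 CPM in tumors 27, 29 and 36. The lines were far apart, with a log2 fold change of -1.37 ± 0.23 (edgeR adjusted p = 0.412, DESeq2 adjusted p = 0.000149). Bcl2l15 was at 119, 115 and 93.7 CPM against 34.7, 69.5 and 36.4 CPM, with a log2 fold change of -1.22 ± 0.31 (edgeR adjusted p = 0.441, DESeq2 adjusted p = 0.0288). Pmaip1, with 187 to 276 CPM against 91.6 to 156 CPM, and Bnip3l, with 266 to 387 CPM against 181 to 230 CPM, had log2 fold changes of -0.89 and -0.72 and did not pass in either tool. In all 4 genes the lines did not overlap, and 8.02% of all genes tested were likewise lower without overlap. The 4 genes were picked by their p-values in this same comparison, so the lack of overlap adds no support. With the length trend removed their log2 fold changes were -1.26, -1.13, -0.88 and -0.78.

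Bax, the second effector, was at 218, 163 and 108 CPM in tumors 13, 18 and 25, against 105, 134 and 79.8 CPM in tumors 27, 29 and 36. Its log2 fold change was -0.61 ± 0.32 (edgeR adjusted p = 0.471) and -0.20 with the length trend removed. By RPKM it exceeded Bak1 in every tumor, 1.80 (tumor 36) to 5.37 times (tumor 13). Bcl2a1b and Bcl2a1d, whose reads may be misassigned between paralogs, had log2 fold changes of -1.05 and -1.04 (edgeR adjusted p = 0.48 and 0.544), and -0.46 and -0.42 with the length trend removed. The value was -0.19 for Bbc3, the gene for PUMA (edgeR adjusted p = 0.873).

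Among the inhibitors of apoptosis, Birc2 and Birc3, the genes for cIAP1 and cIAP2, which join TRAF3 in the complex that degrades NIK, were at 294 to 398 CPM and 229 to 282 CPM in 5 tumors and at 135 and 138 CPM in tumor 36. Their log2 fold changes between the lines were -0.50 and -0.30 (edgeR adjusted p = 0.566 and 0.637). Xiap, which blocks caspases, had 0.15, Cflar, the gene for cFLIP, 0.36 and Birc5, the gene for survivin, -0.28, with edgeR adjusted p-values of 0.842, 0.669 and 0.671. The levels of Cflar and Xiap had an r of 0.980 and 0.833 with the length difference above.

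**Figure D5:**
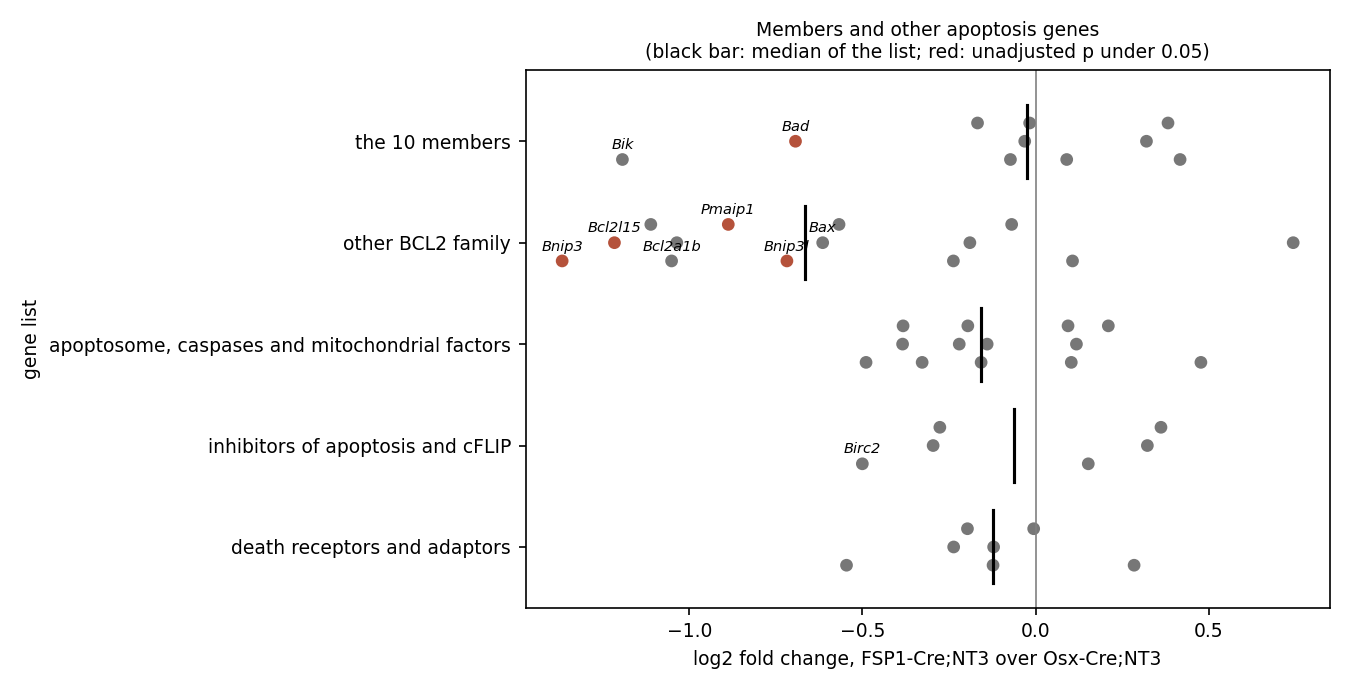
log2 fold change of each tested gene between the lines (FSP1-Cre;NT3 over Osx-Cre;NT3) for the 10 members and 4 lists of other apoptosis genes; the black bar is the median of a list and red points have an unadjusted p under 0.05 in edgeR. The remaining BCL2 family, in which the Bcl2a1 paralogs count singly, lies to the left (median -0.67), while the members centre near 0 (median -0.02) with Bad and Bik to the left.

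Between perineal and trunk tumors the same lists gave 0 genes past the adjusted p in edgeR and 5 below an unadjusted p of 0.05, all lower in perineal tumors, where 1.63% of all genes were both. Of 14 genes of the remaining BCL2 family 13 were lower, with a median of -0.76, and with the length trend removed 11 were, with a median of -0.66. The Bcl2a1 paralogs again count singly among the 14, and all of them were lower before that removal. Bcl2l15 had a log2 fold change of -1.48 ± 0.28 (edgeR adjusted p = 0.263, DESeq2 adjusted p = 0.000377). Pmaip1 was at -0.96, Bok, a further effector-like gene, at -0.73, Bnip3 at -1.24 and Bcl2a1a, with the same limit as its paralogs, at -1.30, and none of these passed in either tool.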

How the data were processed

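RNA-seq read counts per gene were deposited by the authors without normalization, together with RPKM values. Per the methods, reads were aligned to mm10 with HISAT2 (Galaxy 2.1.0) and counted with featureCounts, whereas the submitters' processing notes name TopHat2 2.0.6 and HTSeq. The annotation and strandedness are not given in the sources used here. Every deposited count is even, as when both ends of a pair are counted. Library totals behind the deposited RPKM exceed the summed gene counts (77.2% to 81.5% on genes), and all per-sample columns were used. RPKM served for levels between genes and for the sums, ratios and shares built from them. These were also set side by side between tumors, without TMM scaling. Shares from TPM are the same by construction, because TPM divides the same counts by the same lengths, so they are no check.

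The tests on counts used R 4.3.3 and edgeR 4.0.16 (filterByExpr, TMM, glmQLFit, glmQLFTest, Benjamini-Hochberg over all genes tested), with DESeq2 1.42.0 as the alternative. log2 CPM used a prior count of 2. The SE of a fold change was derived from the F statistic. The code was tested on simulated data. Alternatives were library sizes alone, other filters, halved counts, site or line as covariate, subsets, leaving out each tumor, and, added after the data were seen, removal of a loess trend on gene length, SDs without tumors 18 and 36, and sums with A1 paralogs and Bax. Named genes were the 10 members, listed apoptosis genes with an unadjusted p under 0.05 in either comparison, 10 of them (Bax, Bcl2a1b, Bcl2a1d, Bbc3, Pmaip1, Birc2, Birc3, Xiap, Cflar, Birc5) whatever their values, and the 3 genes most like Bcl2, Bcl2l1 and Mcl1, of which 1 is not reported here. Members, lists and tests were chosen with earlier results of these data known. Overlaps were read from GENCODE M21 and promoter windows from RefSeq (GRCm38.p6). Tumors are separate animals, 3 per line.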

Additional observations from a re-analysis of the deposited data

Results flagged for a closer look

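Of 29 values examined over the 6 tumors (levels of members, sums, ratios and shares), 1 had a tumor far from the others by Dixon's gap, where chance alone would give 1.45. Bik made up 11.85% of the pro-apoptotic RPKM in tumor 18 and 5.47% in the next tumor, a gap of 0.709 of the whole range. Tumor 18 was also the most deeply sequenced tumor, and its Bik level rested on 2150 counts.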

How the results depend on the processing

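Over 14 alternatives, 122 of 140 values of the members between the lines and 130 of 140 between the sites kept their direction, and 0 passed an adjusted p of 0.05 (smallest 0.0715 and 0.168). Bad stayed between -0.93 and -0.47 between the lines and Bik between -1.69 and -0.91 between the sites. DESeq2 called 420 genes between the lines (236, 499, 3650, 460, 731 and 196 without tumors 13, 18, 25, 27, 29 and 36) and 605 between the sites (318, 649, 669, 1490, 731 and 14 in the same order), and 2 and 1 of the listed apoptosis genes. Without each tumor, edgeR called 0 to 567 genes between the sites (2 without 25 and 567 without 27). Between the lines the direction turned with library sizes alone for Bcl2 (0.0653), Bcl2l1 (0.0949) and Bak1 (0.0335), with site as a covariate for Bcl2l1 (0.0602), Mcl1 (-0.138) and Bid (0.0481), in trunk tumors alone for Bcl2l1 (0.0753), Mcl1 (-0.126) and Bid (0.0622), with at least 10 counts in every tumor for Bcl2l1 (0.00528), and with the length trend removed for Bcl2l1 (0.0265) and Bak1 (0.0148). Without each tumor in turn the line value ran for Bcl2 from -0.23 to 0.31, for Bcl2l1 from -0.0934 to 0.0494, for Mcl1 from -0.0774 to 0.162 and for Bid from -0.33 to 0.0573. Between the sites it turned for Bmf with library sizes alone (0.00627) and for Bcl2 with the length trend removed (-0.225), and without each tumor it ran for Bcl2 from -0.0808 to 0.281, for Mcl1 from -0.00487 to 0.372, for Bcl2l11 from -0.10 to 0.58, for Bmf from -0.52 to 0.21 and for Bak1 from -0.18 to 0.20. The causes were not tested. No paired analysis was possible because the replicate numbers in the labels are mouse numbers and the lines share none. With 3 tumors per line, line cannot be told apart from strain background, and the precision is limited by the number of tumors, not by depth.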
